A study of Bos taurus with 11 samples.

Results

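The genes described here are the core ligands and receptors of vascular endothelial growth factor (VEGF) and angiopoietin signalling: VEGFA, VEGFB, VEGFC, FLT1, KDR, FLT4, ANGPT1, ANGPT2, TEK and TIE1. A probe was taken as a member when its gene name in the scanner files was one of these 10 symbols, whatever its signal. The symbols themselves were chosen with earlier results of these data known. Of the 43653 non-control probes of the array, 21 met this rule, and they covered 9 of the 10 genes. FLT1 had no probe by that name. 3 probes annotated only as fragments of a Flt receptor fell outside the rule and are given separately.

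The study biopsied the endometrium, the inner lining of the uterus, of 11 cows (Bos taurus) on day 7 of the oestrous cycle and measured total RNA on 1 Agilent single-colour array per cow. The 5 subfertile cows had failed to conceive at 3 consecutive embryo transfers or inseminations, although no abnormality of the genital tract was found and their cycles appeared normal. The 6 fertile cows had conceived within 3 transfers or inseminations before the biopsy, and again at the first embryo transfer afterwards. Each cow was a separate animal, and neither group is labelled as having received a treatment, so the comparison is one of reproductive history; breed and age are not given in the sources used here.

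VEGF ligands are secreted proteins that bind receptor tyrosine kinases on endothelial cells and drive the sprouting, growth and permeability of blood and lymph vessels. Angiopoietins bind a separate endothelial receptor, TIE2 (the product of TEK): ANGPT1 stabilises vessels, and ANGPT2 can oppose it and loosen them, depending on the context. The endometrium remodels its vessels with every cycle, which makes both systems part of its normal physiology.

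The probes on which the results turn are shown first, 5′ to 3′, as the scanner files give them, with coordinates on the bovine build Btau_3.1 of the array annotation. The first 3 are shown because the signals of these ligand probes differed between the groups with the settings of the report. Capitals mark the longest run of only A and T, or the first of equally long runs, as in A_73_P107636. The first is the VEGFA probe nearest the start of the transcript, at chr23:17908421-17908480 (plus strand). The second is a stretch of the VEGFA probe at chr23:17910983-17911042 (plus strand), namely the last 30 of the 31 bases that it shares with the probe A_73_P108076 at chr23:17911012-17911071. These overlapping probes are therefore not independent readings. The third is the first 30 bases of the ANGPT2 probe at chr27:5625562-5625621 (minus strand).
VEGFA, A_73_P107636: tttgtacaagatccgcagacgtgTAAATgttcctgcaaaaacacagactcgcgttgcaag
VEGFA, A_73_115644: TTTTATTTctgggattcctgtagacacacc
ANGPT2, A_73_111353: gcctcctcttaggagcTTTAAATTTTcatt

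Both TIE receptors were read by 1 probe each, TIE1 at chr3:109614401-109614460 and TEK at chr8:17507541-17507600 (both minus strand). A 30-base stretch of each is shown because it holds AATAAA, in capitals, the common form of the polyadenylation signal. Searched in the probe sequence as given and on that strand alone, AATAAA was found in 3 of the 21 probes (those of TIE1 and TEK and 1 of ANGPT1), 14.3%, and in 4083 of all 43653 probes, 9.4%.
TIE1, A_73_121339: tttaacttaaggAATAAAaatggggatcca
TEK, A_73_101983: atatagtaagtgAATAAAtgtcttgcctac

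Levels are log2 processed signals relative to the 75th percentile of the same array, so that 0 is that percentile. The subfertile arrays were dimmer, with median signals of 54.3 to 92.7 against 161 to 452 in fertile cows, and 64.4 to 74.1% of probes were well above background on subfertile arrays against 72.0 to 77.4% on fertile ones. Subfertile and fertile arrays shared neither a slide nor a scan day among those recorded. The 5 subfertile arrays came from 3 slides scanned on 1 day, and 5 fertile arrays from 3 other slides scanned on 3 other days; the slide and day of the sixth are not known. Slide, day, brightness and group therefore cannot be told apart fully. With slide as a random block 11.5% of all tested probes passed the threshold, and 4 of the 17 tested probes described below did; with scan day as the block these were 3.06% and 0 of 17. In whole biopsies, fewer cells of a type and less RNA per cell cannot be told apart either.

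The array recorded lower VEGFA, the main vessel growth factor, in the subfertile cows. It also recorded higher TIE1, an endothelial receptor without a firmly settled ligand of its own, and a lower signal at 1 of 3 ANGPT2 probes. The signs of VEGFA and of that ANGPT2 probe turned with normexp background correction at an offset of 50. VEGFB, VEGFC, KDR, FLT4, ANGPT1 and TEK did not pass the test at any tested probe. Of the 21 probes, 17 were tested (well above background on at least 5 of the 11 arrays), and 14 were well above background on all 11. By limma with Benjamini-Hochberg adjustment over all 31877 tested probes and a threshold of 0.05, 1 of the 17 was higher and 4 were lower, beside 22.2% of all tested probes called (14.8% higher and 7.38% lower), and 12 were not called. Of the 4 lower probes, 3 read VEGFA, and 2 of those overlap, so the 4 are not independent. The third VEGFA probe, A_73_P107636, needed the fertile arrays to enter the test. At the brightest probes of the 9 genes, only VEGFA (lower) and TIE1 (higher) were called. That share is close to the 22.1% called among all genes with 1 probe each. With normexp, which corrects the background by a fitted model and then adds an offset of 50, 6 of the 17 were called higher (TIE1, FLT4, VEGFA A_73_P107636, VEGFC A_73_P100771, ANGPT2 A_73_111353 and ANGPT2 A_73_P100931) and 1 lower (VEGFB A_73_P282346, at -0.33), beside 46.8% of all tested probes called higher and 6.78% lower. The median difference, subfertile minus fertile, was -0.20 over the 17 probes and 0.07 over all tested probes.

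**Figure D1:**
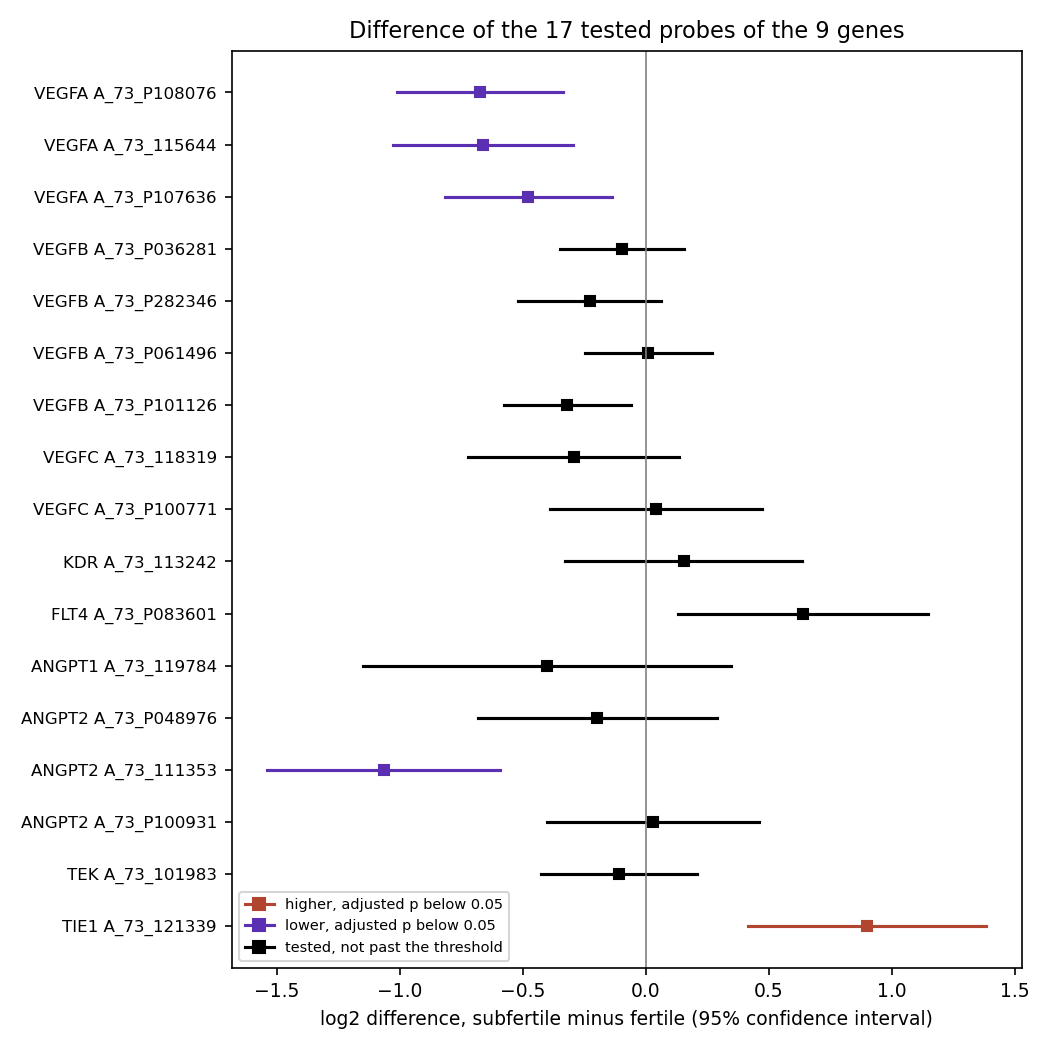
Differences of the 17 tested probes on the log2 scale, subfertile minus fertile, with 95% confidence intervals; colour marks the probes past an adjusted p of 0.05 in limma. The 3 VEGFA probes and 1 ANGPT2 probe lie left of 0 and TIE1 to the right (VEGFA and ANGPT2 turn with normexp); the unadjusted intervals of FLT4 and 1 VEGFB probe also exclude 0.

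Among the ligands, VEGFA binds FLT1 and KDR and is induced by low oxygen. At its brightest probe, A_73_P108076, the level was -3.05, -3.38, -3.76, -3.15 and -3.49 in the 5 subfertile cows, against -2.91, -2.75, -2.83, -2.26, -2.64 and -2.76 in the 6 fertile cows. Every subfertile cow lay below every fertile one, although the highest subfertile cow was close to the lowest fertile cow. VEGFA fell by 0.67 on the log2 scale (1.59-fold lower, SE 0.15, n = 5 and 6; limma adjusted p = 0.0112), with means of -3.37 ± 0.28 in subfertile and -2.69 ± 0.23 in fertile cows (SD).

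The overlapping VEGFA probe A_73_115644 had levels of -3.26, -3.42, -3.74, -3.08 and -3.69 in subfertile cows, against -3.05, -2.72, -2.88, -2.33, -2.60 and -3.08 in fertile cows. The groups again did not overlap, but the margin was narrow, with subfertile cow 4 and fertile cow 6 both at -3.08. The difference was -0.66 ± 0.17 (SE; limma adjusted p = 0.0174). Groups with every subfertile cow below every fertile one were found at 3 of the 17 tested probes, beside 3.85% of all tested probes, and the reverse at 0 of 17, beside 9.58%.

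The VEGFA probe nearest the start of the transcript, A_73_P107636, was dim. It was well above background on 2 of 5 subfertile and all 6 fertile arrays, with levels of -5.49, -5.93, -5.74, -5.26 and -6.06 in subfertile cows, against -5.22, -5.23, -5.26, -5.14, -4.95 and -5.53 in fertile cows. 2 subfertile cows lay within the fertile range and 3 below it. Its difference was -0.48 ± 0.16 (SE; limma adjusted p = 0.0474), and leaving out single cows ended the call in 9 of 11 cases, with limma adjusted p-values between 0.019 and 0.115. The probe met the filter of 5 arrays only through the fertile cows, where it was higher, so its call is no separate support. With the filter on all 11 arrays it was not tested. The limma adjusted p was 0.0557 with a filter of at least 1 array and 0.174 with slide as a random block.

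The direction of VEGFA differed between settings: the 3 probes were lower in subfertile cows with the 75th percentile, median centring, quantile and cyclic loess scaling and in the authors' deposited log2 table, but with normexp background correction the differences turned to 0.12, 0.11 and 1.01 at A_73_P108076, A_73_115644 and A_73_P107636. Normexp called 53.6% of all tested probes and also moved the median difference of all tested probes to 0.33, against 0.07 without it, so that relative to that median the first 2 probes lay 0.21 and 0.22 lower in subfertile cows and the third 0.68 higher. Adding 50 to every processed signal before the logarithm, a step chosen after seeing the data, gave -0.07, -0.04 and 0.97, with a median of 0.32 over all tested probes. Normexp at an offset of 10 in place of 50, also chosen after seeing the data, gave -0.24, -0.27 and 0.46, with a median of 0.22. With scan day as a random block the difference at A_73_P108076 was -0.69 (limma adjusted p = 0.116), and with slide as a random block it was -0.67 (limma adjusted p = 0.0317).

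**Figure D2:**
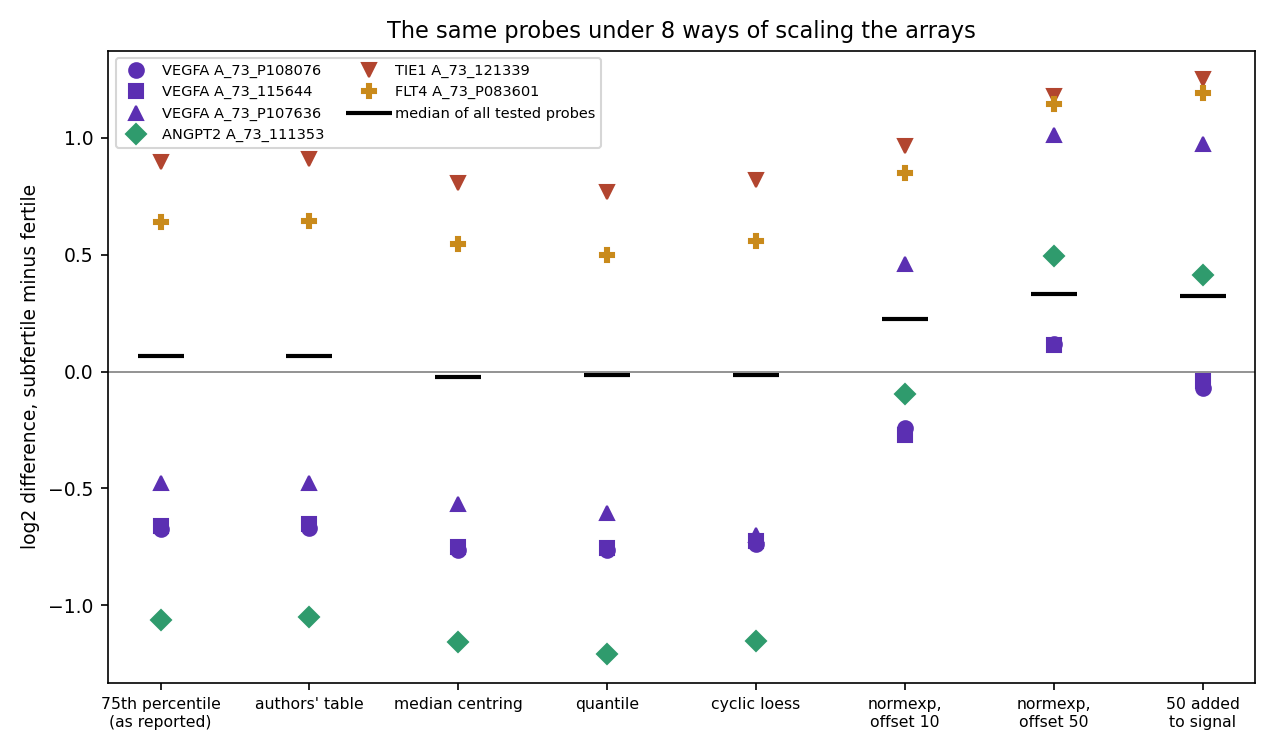
Log2 differences, subfertile minus fertile, of the 3 VEGFA probes, ANGPT2 A_73_111353, TIE1 and FLT4 under 8 ways of scaling the arrays, with the median of all tested probes as a black bar. TIE1 and FLT4 stay above 0 in all 8, whereas ANGPT2 A_73_111353 turns from -1.07 to 0.49 with normexp and an offset of 50.

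VEGFB, a ligand of FLT1 with a role in tissue metabolism and vessel survival, was read by 4 probes, all well above background on every array. The brightest, A_73_P036281, had 2.70, 2.99, 3.18, 3.13 and 3.14 in subfertile cows, against 3.09, 2.91, 3.22, 3.25, 3.25 and 3.02 in fertile cows. The groups overlapped, with subfertile cow 1 lowest. The difference was -0.10 ± 0.12 (SE, 95% interval -0.35 to 0.16; limma adjusted p = 0.577).

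The other 3 VEGFB probes had differences of -0.23, 0.01 and -0.32 (A_73_P282346, A_73_P061496 and A_73_P101126), with limma adjusted p-values of 0.236, 0.960 and 0.0736. At A_73_P101126 the level was -2.87, -2.90, -2.50, -2.87 and -2.89 in subfertile cows, against -2.53, -2.76, -2.53, -2.23, -2.37 and -2.51 in fertile cows. 4 subfertile cows lay within 0.036 of each other and below the fertile range, and subfertile cow 3 lay inside it. With quantile or median scaling this probe passed the threshold at -0.39 and -0.41, and with normexp it turned to 0.10, while A_73_P061496 had differences between -0.08 and 0.12 under the scalings tried.

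VEGFC, the ligand of FLT4 and a growth factor of lymphatic vessels, had -1.47, -1.70, -1.12, -0.93 and -0.77 at the probe A_73_118319 in subfertile cows, against -0.63, -1.02, -0.45, -1.10, -0.98 and -1.25 in fertile cows. 3 subfertile cows lay inside the fertile range and 2 below it. The difference was -0.29 ± 0.20 (SE, 95% interval -0.72 to 0.13; limma adjusted p = 0.303). The probe A_73_P100771, nearer the start of the transcript, had a difference of 0.04 ± 0.20 (SE; limma adjusted p = 0.903), which was slightly below 0 with median, quantile and loess scaling and 0.57 with normexp.

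**Figure D3:**
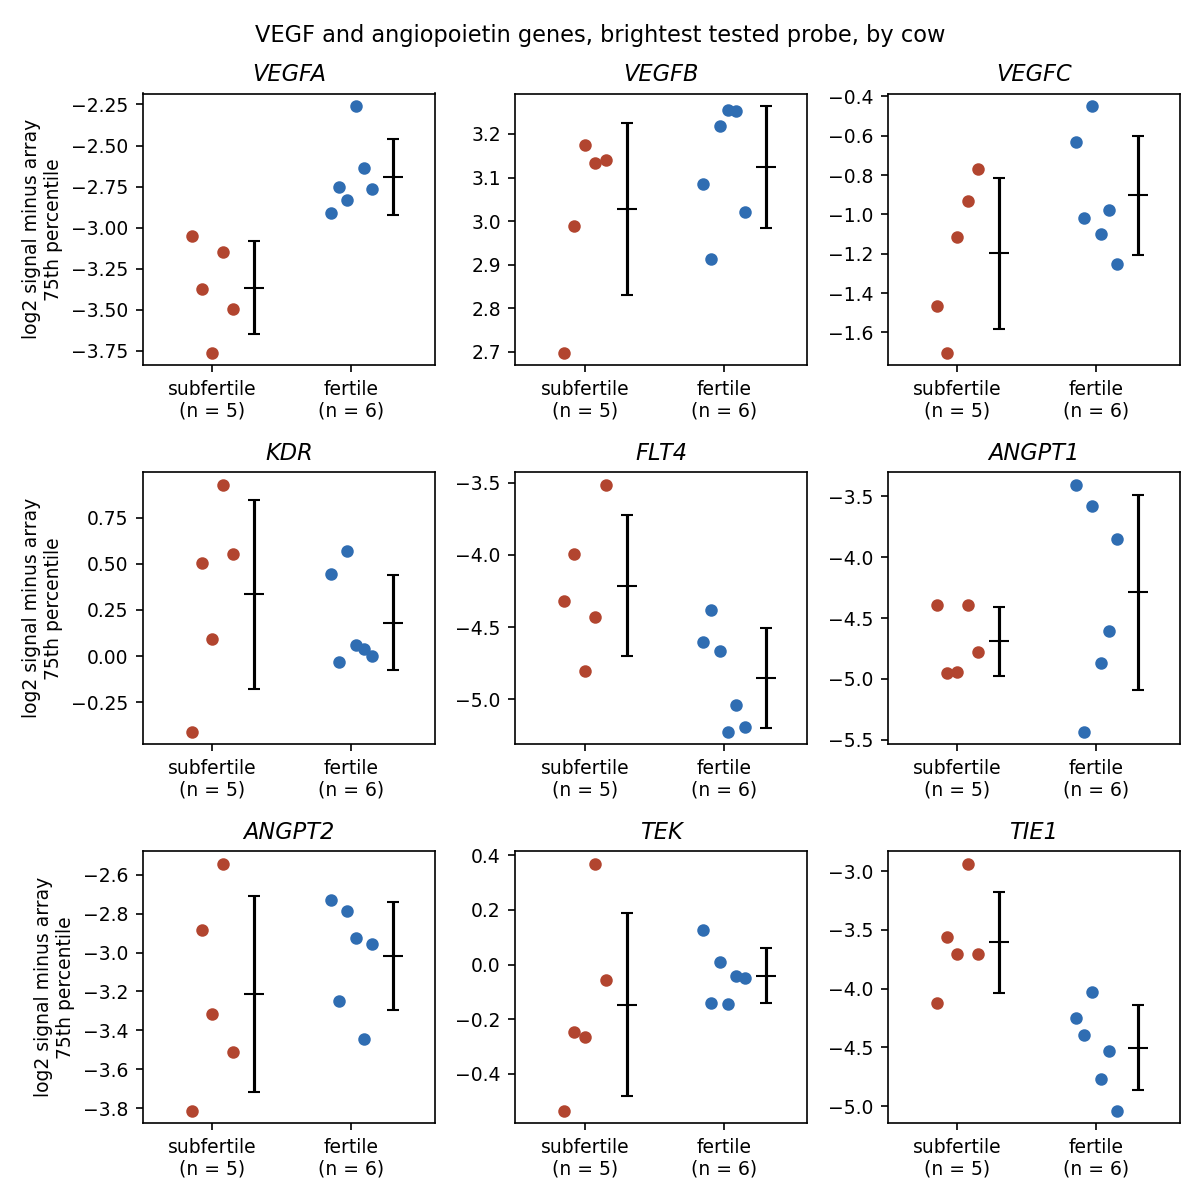
Level of the brightest tested probe of each of the 9 genes, as log2 signal minus the 75th percentile of the array, 1 point per cow, with mean and SD beside the points (5 subfertile and 6 fertile cows). The vertical scales differ between panels. The VEGFA groups do not overlap, and 4 of 5 subfertile cows lie above all fertile cows for TIE1.

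Of the VEGF receptors, KDR (VEGFR2) carries most of the growth signal of VEGFA in endothelium. Its bright probe A_73_113242 had -0.41, 0.51, 0.10, 0.93 and 0.56 in subfertile cows, against 0.45, -0.03, 0.57, 0.06, 0.04 and 0.00 in fertile cows. The subfertile cows spanned more than the whole fertile range, with cow 1 below it and cow 4 above it. The difference was 0.15 ± 0.22 (SE, 95% interval -0.33 to 0.64; limma adjusted p = 0.647). The second KDR probe, A_73_P255521, was well above background on 0 of 5 subfertile and 2 of 6 fertile arrays and was not tested.

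FLT4 (VEGFR3), the receptor of VEGFC on lymphatic and sprouting endothelium, had -4.32, -3.99, -4.81, -4.43 and -3.51 at the probe A_73_P083601 in subfertile cows, against -4.61, -4.38, -4.67, -5.23, -5.04 and -5.19 in fertile cows. 3 subfertile cows lay above the fertile range and 2 inside it. The difference was 0.64 ± 0.23 (SE, 95% interval 0.13 to 1.15; limma adjusted p = 0.0693), and it did not pass the threshold. It passed without fertile cow 2 (0.73; limma adjusted p = 0.0479) and without subfertile cow 3 (0.79; limma adjusted p = 0.0345). It also passed with normexp (1.15), where the median of all tested probes was 0.33 and 46.8% of them were called higher. With median, quantile and loess scaling FLT4 did not pass (limma adjusted p = 0.104, 0.141 and 0.112). The other FLT4 probe, A_73_117098, was well above background on 0 of the 11 arrays.

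FLT1 (VEGFR1), which binds VEGFA and VEGFB and can act as a decoy, could not be read by name. The brightest probe annotated only as a Flt-receptor fragment, A_73_P077206 at chr12:31667191-31667250, had -4.35, -4.07, -3.82, -3.56 and -3.92 in subfertile cows, against -3.72, -3.55, -3.44, -3.14, -3.65 and -4.14 in fertile cows. The groups overlapped, and the difference was -0.34 ± 0.18 (SE; limma adjusted p = 0.204). The other 2 fragment probes were well above background on 0 and 2 of the 11 arrays and were not tested.

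Of the angiopoietins, ANGPT1 was weakly read. Its tested probe A_73_119784 had -4.39, -4.95, -4.94, -4.39 and -4.78 in subfertile cows, against -3.41, -5.43, -3.58, -4.87, -4.61 and -3.85 in fertile cows. All subfertile cows lay inside the wide fertile range. The SD was 0.28 in subfertile and 0.80 in fertile cows, and the fertile cows of slide 2 (cows 2 and 5) averaged 1.53 below those of slide 1 (cows 1 and 3), a difference larger than that between the groups.

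The difference between the groups was -0.40 ± 0.34 (SE; limma adjusted p = 0.426), and it turned to 0.61 with normexp. The ANGPT1 probes A_73_P045591 and A_73_P100926 were well above background on 2 and 0 fertile arrays and on 0 subfertile arrays, and were not tested.

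ANGPT2, released by activated endothelium, gave unequal readings at its 3 probes. The brightest, A_73_P048976, had -3.81, -2.88, -3.31, -2.54 and -3.51 in subfertile cows, against -2.73, -3.25, -2.79, -2.93, -3.45 and -2.95 in fertile cows. The groups overlapped, with subfertile cows at both ends, and the difference was -0.20 ± 0.22 (SE; limma adjusted p = 0.552). It was 0.30 with normexp.

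The ANGPT2 probe A_73_111353, the farthest along the transcript, had -5.75, -4.97, -5.57, -4.49 and -5.51 in subfertile cows, against -4.05, -4.03, -3.96, -4.22, -4.49 and -4.41 in fertile cows. No subfertile cow lay above a fertile one, although subfertile cow 4 and fertile cow 5 were both at -4.49. The signal fell by 1.07 (2.09-fold lower, SE 0.22, n = 5 and 6; limma adjusted p = 0.0064), with means of -5.26 ± 0.52 in subfertile and -4.19 ± 0.22 in fertile cows (SD). The probe was well above background on 4 of 5 subfertile and all 6 fertile arrays. The direction was kept with median, quantile and loess scaling (-1.16, -1.21 and -1.15) and turned to 0.49 with normexp (limma adjusted p = 0.0121) and to 0.41 with 50 added to the signal, or 0.16 and 0.09 above the median of all tested probes. With normexp at an offset of 10 the difference was -0.10 (limma adjusted p = 0.635).

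The third ANGPT2 probe, A_73_P100931, had -5.09, -4.63, -4.93, -4.29 and -5.50 in subfertile cows, against -4.53, -4.99, -4.93, -4.91, -5.18 and -4.94 in fertile cows. The groups overlapped at a difference of 0.03 ± 0.20 (SE; limma adjusted p = 0.934), which was between -0.11 and -0.06 with median, quantile and loess scaling and 0.96 with normexp. Within arrays, the distal probe A_73_111353 lay -2.26 to -1.94 from A_73_P048976 in subfertile cows, against -1.46 to -0.79 in fertile cows. This contrast between probes of 1 transcript did not overlap between the groups, differed by -0.87, and turned to 0.19 with normexp. Against A_73_P100931 the distal probe lay at -0.66 to -0.01 in subfertile cows and at 0.48 to 0.98 in fertile cows, again without overlap, and this difference of -1.09 kept its direction with normexp, at -0.47. A_73_111353 alone already did not overlap between the groups, so these contrasts are no separate result. The share of all probe pairs without overlap was not counted. Of the 3 ANGPT2 probes, 1 passed the test and 2 did not.

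**Figure D4:**
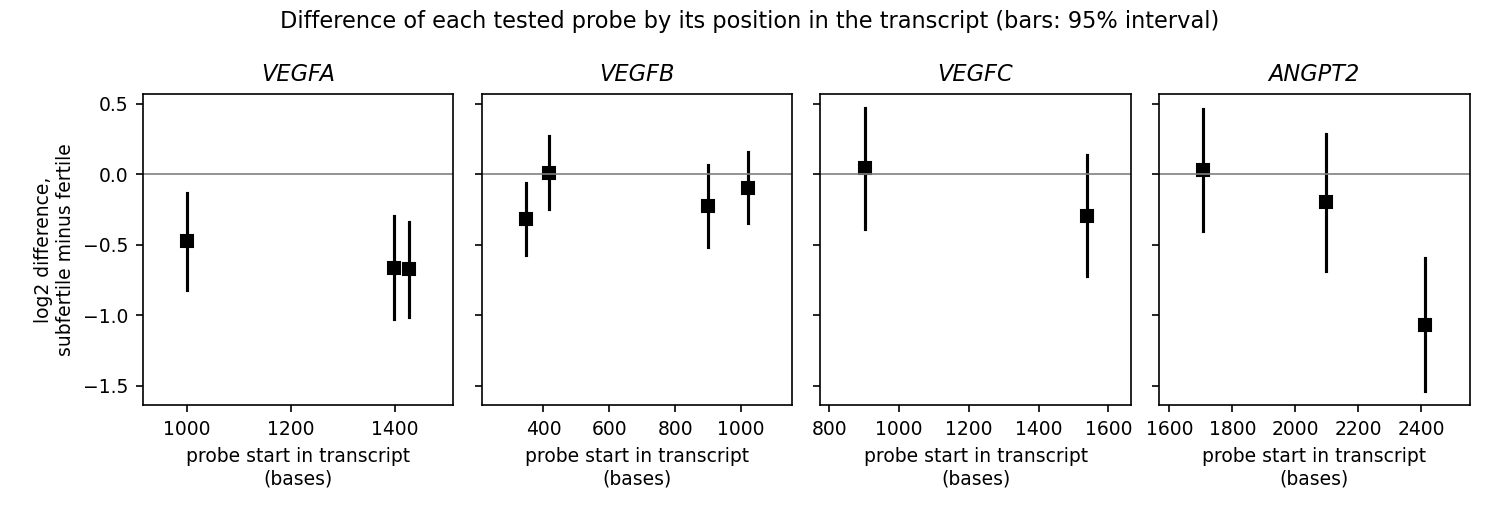
Log2 difference, subfertile minus fertile, of each tested probe of VEGFA, VEGFB, VEGFC and ANGPT2 against the position at which the probe starts in the transcript, in bases, with 95% confidence intervals. The ANGPT2 probe that starts at 2413 lies at -1.07, whereas those at 1708 and 2099 lie at 0.03 and -0.20.

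Of the TIE receptors, TEK encodes TIE2, which carries angiopoietin signals. Its probe A_73_101983 had -0.54, -0.25, -0.27, 0.37 and -0.06 in subfertile cows, against 0.13, -0.14, 0.01, -0.14, -0.04 and -0.05 in fertile cows. The fertile cows lay close together (SD 0.10) and the subfertile cows spread on both sides of them (SD 0.34). The difference was -0.11 ± 0.14 (SE, 95% interval -0.42 to 0.21; limma adjusted p = 0.628), with a value below 0 under every scaling tried.

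TIE1, which forms complexes with TIE2 and tunes its signal, had -4.12, -3.56, -3.70, -2.94 and -3.70 at the probe A_73_121339 in subfertile cows, against -4.25, -4.40, -4.03, -4.77, -4.53 and -5.04 in fertile cows. 4 of 5 subfertile cows lay above every fertile cow, and subfertile cow 1 lay inside the fertile range. TIE1 rose by 0.90 (1.86-fold, SE 0.22, n = 5 and 6; limma adjusted p = 0.0154), with means of -3.61 ± 0.43 in subfertile and -4.50 ± 0.36 in fertile cows (SD), and it was higher under every scaling tried, at 0.77 to 1.25. The limma adjusted p was 0.0407 with slide as a random block and 0.134 with scan day. Leaving out single cows gave differences of 0.73 to 1.03, all past the threshold.

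Because the receptors are endothelial, the members were set beside a list of endothelial markers that holds none of them. Of its 25 tested genes, 8 were higher, 0 lower and 17 not called, with a median difference of 0.29 (0.27 with normexp, where all genes had 0.24), beside 0.06 over all 18513 genes with 1 probe each, of which 22.1% were called (14.2% higher and 7.9% lower). The genes that rose included TAL1 (1.35), MMRN1 (1.42), PLVAP (0.79) and GNG11 (0.68), whereas the junction proteins PECAM1 (-0.36; limma adjusted p = 0.172) and CDH5 (0.23; limma adjusted p = 0.253) did not pass the test. With normexp CDH5 passed, at 0.79 (limma adjusted p = 0.000406), and PECAM1 did not, at -0.09 (limma adjusted p = 0.620). The mean of the 25 markers, each centred over the arrays, was 0.20 ± 0.24 in subfertile and -0.16 ± 0.07 in fertile cows (SD), a difference of 0.36, given as a description with no test. It ranged from -0.09 to 0.52 in subfertile cows and from -0.25 to -0.07 in fertile cows.

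With this mean as a covariate the difference of TIE1 was 0.29 (limma adjusted p = 0.530), and that of VEGFA at A_73_P108076 was -0.74 (limma adjusted p = 0.109). The SE at A_73_P108076 was 0.25, against 0.15 without the covariate. KDR was at -0.55 (limma adjusted p = 0.162) and TEK at -0.54 (limma adjusted p = 0.0775). The marker mean itself differed between the groups, so this fit cannot tell it apart fully from group. In the covariate fit, which called 3.82% of all tested probes, 1 of the 17 probes, ANGPT2 A_73_111353, passed the threshold, at -1.65 (limma adjusted p = 0.0183).

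Subtracting the mean from every level lowers every difference by the same 0.36, and the median over all genes was then -0.30. On that scale the brightest probes of the 9 genes differed by 0.54 for TIE1, 0.28 for FLT4, -0.21 for KDR, -0.46 for VEGFB, -0.47 for TEK, -0.56 for ANGPT2, -0.65 for VEGFC, -0.76 for ANGPT1 and -1.03 for VEGFA. All subfertile cows lay below all fertile ones for VEGFA, VEGFC and TEK, 3 of the 9 genes, beside 11.7% of all genes; they lay above for 0 of the 9, beside 0.859% of all genes, and 6 overlapped. TEK and VEGFC overlapped between the groups before the subtraction.

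**Figure D5:**
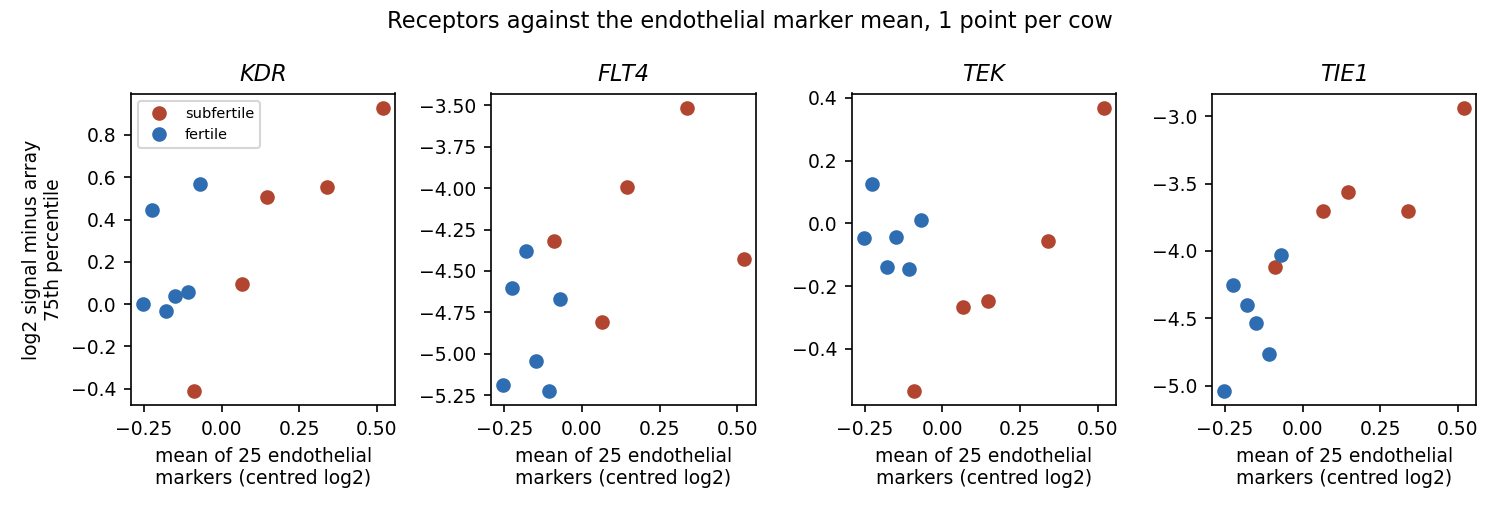
Level of KDR, FLT4, TEK and TIE1 in each cow (vertical, log2 signal minus the 75th percentile of the array) against the mean of 25 endothelial markers in the same cow (horizontal, centred log2). Subfertile cows 2 to 5 have a marker mean above that of every fertile cow, and subfertile cow 4 has the highest marker mean, KDR, TEK and TIE1.

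Markers of other cell types were counted in the same way, beside the 22.1% of all genes called. Of 20 tested epithelial markers 10 were higher and 0 lower (50% called, median 0.49; means per cow 0.08 to 0.42 in subfertile and -0.75 to -0.01 in fertile cows), among them CLDN3 (1.08). Of 15 stromal markers 2 were higher and 3 lower (33.3% called, median -0.15), with MMP2 at -0.66 and FBN1 at -0.98; the 2 that were higher, COL3A1 and DCN, turned to -0.24 and -0.34 with quantile scaling. Of 13 pericyte and smooth muscle markers 2 were higher (SMTN 0.89 and LMOD1 0.73) and 0 lower, and of 6 lymphatic markers 2 were higher (PDPN 1.20 and RELN 0.66) and 0 lower (15.4% and 33.3% called). Of 15 leukocyte markers 2 were higher and 1 lower (20% called), with the B cell gene CD79A at 1.43 and the pan-leukocyte gene PTPRC at -0.95. Some of these genes passed at only part of their tested probes, namely MMP2 at 1 of 5, and LMOD1, PDPN and PTPRC at 1 of 2 each. The leukocyte median of -0.21 turned to 0.24 with normexp. The part of these cell types in the member differences was not tested.

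Around the core members, 11 further ligands, coreceptors and modulators were tested, of which 0 were higher and 1 lower (9.09% called, beside 22.1% of all genes). Their median was -0.01, and 0.086 with normexp, beside 0.06 and 0.24 for all genes. The one that passed was ANGPTL1, an angiopoietin-like secreted protein, at -1.98 (limma adjusted p = 0.0114), with levels of -4.90, -7.44, -6.53, -5.45 and -6.44 in subfertile cows against -4.54, -4.18, -3.20, -3.50, -5.16 and -4.43 in fertile cows. Detection was poor in the subfertile cows, at 1 of 5 arrays. ANGPTL1 therefore entered the test only through the fertile cows, where it was higher, and its difference turned to 0.39 with normexp. The coreceptor NRP1 was at -0.36 (limma adjusted p = 0.115), NRP2 at -0.01, the ligand PGF at -0.25 and PTPRB, the phosphatase that acts on TIE2, at -0.19, none of which passed the test at its brightest probe. The 3 tested PTPRB probes disagreed, with 1 called lower and 1 called higher.

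Downstream of the receptors, 9 of 34 tested signal transduction genes were higher, 3 lower and 22 not called, or 35.3% called, beside 14.2% of all genes higher and 7.9% lower. The median of the list was 0.28, and 0.39 with normexp and 0.16 with loess scaling, beside 0.06, 0.24 and -0.02 for all genes. The kinases AKT1 (0.87), MAPK3 (1.21), MAP2K2 (0.62) and PTK2 (0.80) and the endothelial nitric oxide synthase NOS3 (0.70) rose. The catalytic PI3-kinase subunits PIK3CA (-0.60) and PIK3CB (-0.57) fell, and the KDR-binding adaptor SH2D2A fell by 0.64 (limma adjusted p = 0.00169) but turned to 0.52 with normexp. Most of these genes act in many cell types and pathways. Over 7 other scalings, 4 of the 52 called genes of all lists changed sign under at least 1: ANGPTL1, SH2D2A, COL3A1 and DCN. Calls lost without a change of sign are not in this count. Among these were GNG11 with quantile scaling (limma adjusted p = 0.0867) and LMOD1 with quantile, median and loess scaling (limma adjusted p = 0.0582, 0.0695 and 0.0601).

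Of 24 tested genes that VEGF induces or that mark tip and stalk cells, 2 were higher, 1 lower and 21 not called (median -0.04, and 0.053 with normexp). This was 12.5% called, and the 2 lists below had 17.2% and 7.14%, all lower than the 22.1% of all genes. APLN, a peptide made by tip cells, was at 0.90 (limma adjusted p = 0.00198) and PDGFB, which recruits pericytes, at 0.67 (limma adjusted p = 0.00792), while the chemokine receptor CXCR4 was at -0.86 (limma adjusted p = 0.0478). Of 29 hypoxia response genes 3 were higher and 2 lower (17.2% called, median -0.05, and 0.025 with normexp). BNIP3 rose by 0.68, HIF1AN, which restrains HIF activity, by 0.73 and the glycolytic enzyme ENO1 by 0.51. BNIP3 passed at 1 of its 3 tested probes and HIF1AN at 1 of 2. ERO1L, an oxidase of the endoplasmic reticulum, was at -1.84 (limma adjusted p = 0.00823) and ANKRD37 at -0.75 (limma adjusted p = 0.0192), and all 5 kept their direction under the 7 other scalings. By contrast, the oxygen-regulated factors HIF1A (0.37; limma adjusted p = 0.158) and EPAS1 (-0.20; limma adjusted p = 0.578) did not pass the test. Of 14 angiogenesis inhibitors 0 were higher and 1 lower (7.14% called, median 0.04, and -0.14 with loess scaling), namely SFRP1 at -0.84. COL18A1, the source of endostatin, was at -0.42 (limma adjusted p = 0.0666). It passed with normexp, median, quantile and loess scaling, at -0.49, -0.51, -0.86 and -0.76. With the settings of the report, 2 of its 6 tested probes were called lower.

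By the root mean square difference over the 11 arrays, each probe centred on its own mean, the genes most like VEGFA were SLC25A29 (0.149), AKAP1 (0.158) and DNMT3A (0.164), against a median of 0.530 over 12517 genes. Those most like KDR were ADAMTSL5 (0.165), ARHGAP4 (0.175) and the endothelial sialomucin EMCN (0.182), against a median of 0.475.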

How the data were processed

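Total RNA from 11 endometrial biopsies was labelled with Cy3 and hybridised to Agilent single-colour arrays, per the labels' protocols. Per the submitters' processing notes, the software was Agilent Feature Extraction 10.5.1.1. Each deposited scanner file gives the intensity of 45220 spots, with a background-subtracted processed signal. The authors also deposited a log2 table, which set against the scanner files is scaled to the 75th percentile and centred on each probe's median over the arrays. Its column medians run from -0.08 to 0.09 and its direction is that of the signal. 10 of its 11 arrays lay within 0.01 of the scanner values for nearly all probes, and fertile cow 1 did for 16.9% of probes. It was used as an alternative only.

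Control spots and spots marked as outliers were left out and repeated spots of a probe averaged. The log2 processed signal minus the array's 75th percentile was fitted with limma 3.58.1 (lmFit and eBayes, R 4.3.3) for subfertile minus fertile, over 31877 of 43653 probes well above background on at least 5 arrays. A gene stands for its brightest tested probe. Gene names were taken from the array annotation and a RefSeq table. Other settings were normexp with offset 50, other scalings, filters, random blocks, array weights, the marker mean as a covariate and leaving out each cow. Precision is limited by the 11 arrays.

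All members are named with every probe. In each list the 2 genes with the smallest p, and PGF, NRP1, NRP2, HIF1A, EPAS1, PECAM1, CDH5 and PTPRB, are named; AKT1, MAPK3, PTK2, NOS3, PIK3CA, PIK3CB, MMRN1, PLVAP, COL3A1, DCN, CXCR4, ENO1, ERO1L and ANKRD37 were added after their values were seen. The members and lists were chosen with earlier results of these data known. 1 gene that this rule names and 1 probe sequence are not reported here.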

Additional observations from a re-analysis of the deposited data

Results flagged for a closer look

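At the VEGFB probe A_73_P101126, subfertile cow 3 stood apart from the other 4 subfertile cows at -2.50, with the nearest of them at -2.87, a gap of 0.909 of the range of the 5 cows. Dixon's test was run on 36 groups of values and 1 exceeded its limit, where chance gives about 1 in 20. Without this cow the probe had a difference of -0.39 (limma adjusted p = 0.0373), against -0.32 (limma adjusted p = 0.0736) with all cows.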

How the results depend on the processing

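Over the 17 tested probes and 29 alternatives, 399 of 490 values kept their direction and side of the threshold. The probes called numbered 7067 with the settings of the report, and 17082 with normexp, 13207 with normexp at an offset of 10, 16788 with 50 added to the signal, 12176 without a filter, 3672 and 977 with slide and scan day as random blocks, 1217 with the endothelial mean as a covariate, 2626 at an adjusted p below 0.01 and 4180 without the 2 fertile cows of slide 1. Of calls, 66.7% were higher with the settings of the report, against 50.8% with quantile, 48.5% with median and 51.2% with loess scaling and 87.3% with normexp. The member probes called, 5 in the report (1 higher and 4 lower), were 7 with normexp (6 higher and 1 lower), 6 with 50 added (all higher), 4 with normexp at an offset of 10 (all higher), 3 with the filter on all 11 arrays and without the 2 fertile cows of slide 2, 0 with scan day, 1 with the endothelial covariate and 1 at an adjusted p below 0.01. Leaving out single cows gave 4527 (without subfertile cow 2) to 7298 probes and 4 to 6 member probes. The normexp offset of 10, the added 50 and the slide subsets were chosen after seeing the data, and the cause of these shifts was not tested. Signs also turned for VEGFA A_73_P108076 (0.12), A_73_115644 (0.11), VEGFB A_73_P101126 (0.10), ANGPT1 A_73_119784 (0.61), ANGPT2 A_73_P048976 (0.30) and A_73_111353 (0.49) with normexp, for VEGFA A_73_P107636 with normexp (1.01), offset 10 (0.46) and 50 added (0.97), for VEGFB A_73_P101126 (0.076), ANGPT1 (0.66), ANGPT2 A_73_P048976 (0.31) and A_73_111353 (0.41) with 50 added, and with offset 10 for ANGPT1 (0.13) and ANGPT2 A_73_P048976 (0.024). Small values turned below 0 for VEGFB A_73_P061496 (quantile -0.022, median -0.081, loess -0.0094, slide -0.023, day -0.0028, covariate -0.0093, without slide 1 -0.061), VEGFC A_73_P100771 (quantile -0.074, median -0.051, loess -0.032, array weights -0.057, covariate -0.14), KDR (covariate -0.55) and ANGPT2 A_73_P100931 (quantile -0.11, median -0.063, loess -0.095, covariate -0.16, without slide 2 -0.058). Without single cows these ranged from -0.041 to 0.058 for VEGFB A_73_P061496, -0.069 to 0.13 for VEGFC A_73_P100771 and -0.12 to 0.18 for ANGPT2 A_73_P100931.

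Cows that share a replicate number are different animals, and the correlations of their deviations ran from -0.208 to 0.217 with 1 of 5 best with its own number, so the numbers were not used as pairs. With the number as a replicate block 3 member probes were called, and VEGFC A_73_P100771 was at -0.069. TIE1 (0.79; limma adjusted p = 0.0752) and VEGFA A_73_P107636 (-0.54; limma adjusted p = 0.0722) did not pass in that fit.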
